A study of Canis lupus familiaris with 12 samples.

Results

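The 10 genes described here are core components and widely used transcriptional targets of the Hippo pathway: YAP1, WWTR1, TEAD1, LATS1, LATS2, NF2, AMOTL1, AMOTL2, CYR61 and CTGF. They were chosen by name. All 10 were found by symbol among the 13672 genes listed for MDCKII cells, a polarised epithelial cell line from dog kidney, and all 10 passed the filter on low values (above 1 CPM in 3 or more libraries, where CPM is the read count of a gene scaled to the size of the library), as did 12650 genes in all. RNASeq of untreated cells was available for 4 genotypes with 3 libraries each: WT cells, cells knocked out for cingulin (CGN-KO), cells knocked out for paracingulin (CGNL1-KO), and cells knocked out for both (double-KO, CGN_CGNL-dKO in the labels). Cingulin and paracingulin are related cytoplasmic proteins of epithelial junctions. All lines share the MDCKII background, each KO genotype is 1 CRISPR/Cas9 line by its labels, and no rescued line was among the 12 libraries, so the effect of a genotype and that of a line cannot be told apart. The labels do not say whether the 3 libraries of a genotype came from separate cultures, and p-values then measure the spread between these libraries, which may be technical.

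The Hippo pathway is a kinase cascade that controls tissue growth and reads cell contacts, polarity and actomyosin tension. When it is active, the LATS kinases phosphorylate the co-activators YAP and TAZ, which are then held in the cytoplasm or degraded; when it is inactive, YAP and TAZ enter the nucleus, bind TEAD factors and raise the transcription of target genes. In epithelia several of its upstream proteins reside at tight and adherens junctions. The data are mRNA levels, so neither phosphorylation nor the position of YAP and TAZ in the cell was measured.

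Each library held between 16837532 and 30086076 reads. CGN mRNA was between 199 and 233 CPM in WT and between 198 and 213 CPM in CGNL1-KO cells, while it was between 47.0 and 56.5 CPM in CGN-KO and between 39.7 and 45.3 CPM in double-KO cells. CGNL1 mRNA was low in WT cells (7.74 to 12.3 CPM), lower in CGN-KO cells (5.04 to 6.92 CPM), and lowest in CGNL1-KO (1.76 to 3.02 CPM) and double-KO cells (1.11 to 1.76 CPM). The summed CPM of 12 epithelial markers was between 7772 and 7991 in WT, between 8211 and 8366 in CGN-KO, between 8367 and 8708 in CGNL1-KO cells, and between 7851 and 8004 in the double-KO. The mesenchymal defining markers COL1A1, COL1A2, COL3A1, PDGFRB, DCN and LUM, and the endothelial and immune markers PECAM1, CDH5, PTPRC and CD3E were not among the listed genes.

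The members were covered by between 544 reads (AMOTL1) and 24724 reads (CYR61) per library, so that the counting error was at most 4.29% of a value. Across the 12 libraries the highest value exceeded the lowest by 1.89-fold for CTGF, 1.55-fold for AMOTL2, 1.38-fold for WWTR1, 1.36-fold for CYR61 and 1.34-fold for LATS1, and by between 1.20-fold and 1.23-fold for YAP1, TEAD1, LATS2, NF2 and AMOTL1. Thus CTGF varied most of the 10 genes, and the mRNA of the co-activator YAP1 varied by 1.23-fold. A difference is said to have passed the test at an adjusted p below 0.05 (limma, on log2(CPM + 1), Benjamini-Hochberg over the 12650 genes). Log2 changes are given on this scale.

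**Figure D1:**
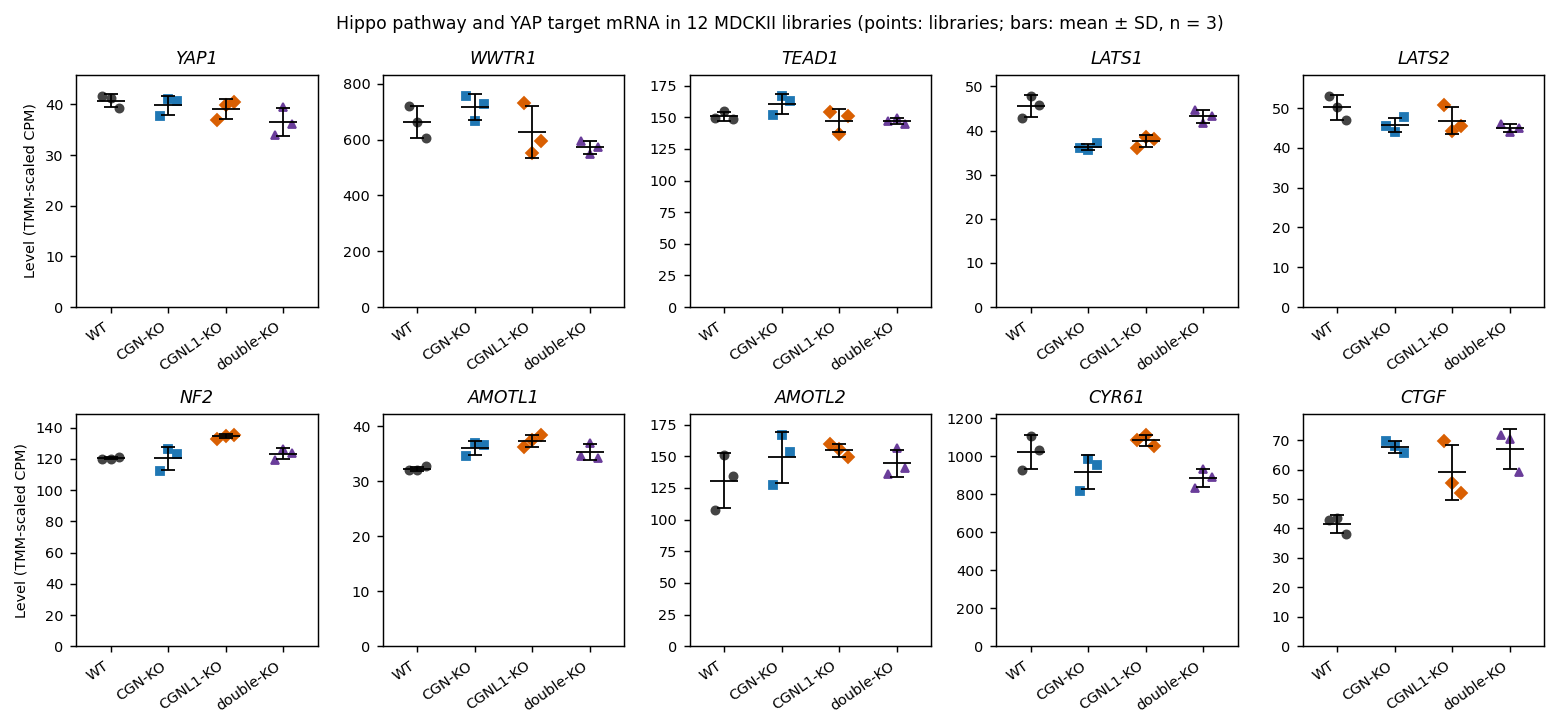
Deposited CPM of the 10 Hippo pathway and target genes in each of the 12 libraries, 1 panel per gene, with genotype on the horizontal axis and CPM on a vertical axis of its own for each gene; points are libraries, and bars show the mean and SD (n = 3). The 3 WT values of CTGF lie between 38.0 and 43.7 CPM and all 9 KO values lie between 52.1 and 71.7 CPM, whereas the YAP1 values of both single-KO lines overlap with those of WT cells.

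The KO lines were first compared with WT cells. CTGF was higher in every KO line, LATS1 was lower in both single-KO lines, and AMOTL1 was higher in CGNL1-KO cells. In CGN-KO against WT cells 2 of the 10 members passed the test (CTGF and LATS1), against a background of 19.0% of all genes tested. In CGNL1-KO cells 3 of the 10 passed (CTGF, LATS1 and AMOTL1), against 10.3% of all genes. In double-KO cells only CTGF passed, 1 of 10, against 26.3% of all genes. The count was near the background in CGN-KO cells, below it in double-KO cells and above it in CGNL1-KO cells, and a list of 10 genes gives only coarse shares. By direction, 1 member was higher in CGN-KO (11.2% of all genes), 2 in CGNL1-KO cells (6.81%) and 1 in the double-KO (14.8%), and 1 was lower in CGN-KO (7.87%), 1 in CGNL1-KO cells (3.49%) and 0 in the double-KO (11.5%). For the latter count of 0, edgeR also gave 0 and DESeq2 gave 1 lower member (CYR61), and 5 of the 10 members had an unadjusted p below 0.05 in either direction. The 3 contrasts share the WT libraries. No member changed by 2-fold or more in limma, edgeR or DESeq2, whereas 1.31%, 0.617% and 1.41% of all genes passed the test with a change of at least 2-fold in CGN-KO, CGNL1-KO and double-KO cells. The median absolute log2 change of the members was 0.143 in CGN-KO, 0.127 in CGNL1-KO cells and 0.152 in the double-KO, beside 0.122, 0.0952 and 0.138 for all genes.

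**Figure D2:**
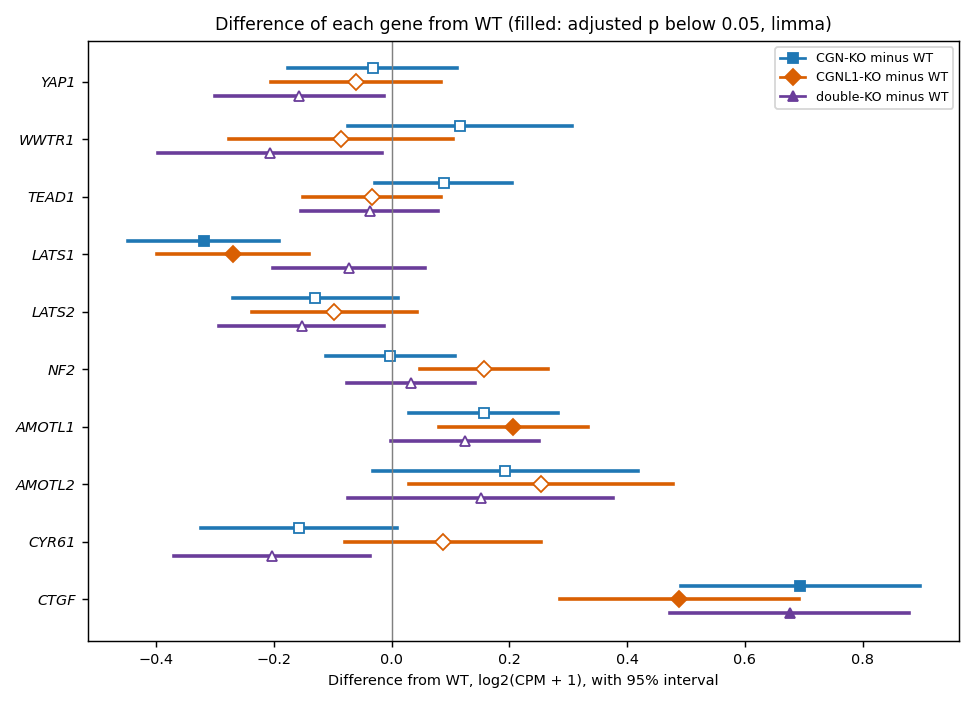
Log2 change of each member against WT in CGN-KO, CGNL1-KO and double-KO cells (limma, horizontal axis in log2 units of CPM + 1); points are estimates, bars are 95% confidence intervals, and filled points passed the test at an adjusted p below 0.05. CTGF has the largest changes (0.69, 0.49 and 0.68), and LATS1 is lower in CGN-KO (-0.32) and CGNL1-KO cells (-0.27) but not detectably in double-KO cells (-0.07).

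The targets are described first, since they carry the largest changes. CTGF (also named CCN2) encodes a secreted matricellular protein and is a standard readout of YAP-TEAD activity that also responds to TGF-beta. Its level was 42.9, 43.7 and 38.0 CPM in WT replicates 1, 2 and 3. In CGN-KO replicates 1, 2 and 3 it was 69.6, 68.0 and 65.5 CPM. All 3 CGN-KO libraries lay above all 3 WT libraries. In CGNL1-KO replicates 1, 2 and 3 the level was 69.6, 55.4 and 52.1 CPM. Among the double-KO libraries, replicate 2 had 71.7 CPM, replicate 3 had 70.2 CPM, and the library whose column carries no number had 59.3 CPM. Neither group overlapped with WT, and replicate 1 of CGNL1-KO and the unnumbered double-KO library stood apart from the other 2 libraries of their groups, upwards and downwards, respectively.

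The mean CTGF level was 41.5 ± 3.05 CPM in WT, 67.7 ± 2.04 CPM in CGN-KO, 59.0 ± 9.31 CPM in CGNL1-KO cells, and 67.1 ± 6.79 CPM in the double-KO (SD, n = 3). CTGF rose 1.62-fold in CGN-KO (log2 change 0.69, 95% CI 0.49 to 0.90, adjusted p = 7.88e-05), 1.40-fold in CGNL1-KO (0.49, 0.29 to 0.69, adjusted p = 0.00311), and 1.60-fold in double-KO cells (0.68, 0.47 to 0.88, adjusted p = 7.76e-05). All 3 changes passed the test when any 1 of the 12 libraries was left out. With all 12 libraries and no replicate block, no difference among the 3 KO levels passed the test. The difference between CGN-KO and CGNL1-KO was 0.21 (0.00266 to 0.41, adjusted p = 0.279). With the block in a fit of these 6 libraries its adjusted p was 0.0142. The difference between double-KO and CGN-KO was -0.02 (-0.22 to 0.19, adjusted p = 0.937). That between double-KO and CGNL1-KO was 0.19 (-0.0152 to 0.39, adjusted p = 0.223). Without CGNL1-KO replicate 1, both differences from CGNL1-KO passed the test, also with no block.

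CYR61 (also named CCN1), the close relative of CTGF and another standard YAP target, did not follow it. In WT replicates 1, 2 and 3 its level was 929, 1109 and 1031 CPM. In CGN-KO cells it was 815, 985 and 952 CPM, and in CGNL1-KO cells 1087, 1112 and 1054 CPM. Among the double-KO libraries, replicate 2 had 834 CPM, replicate 3 had 932 CPM and the unnumbered one had 894 CPM. The range of every KO group overlapped with that of WT, while all double-KO and all CGN-KO libraries lay below all CGNL1-KO libraries. Replicate 1 was the lowest library in WT and in CGN-KO cells.

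Against WT, the log2 change of CYR61 was -0.16 in CGN-KO (-0.32 to 0.0084, adjusted p = 0.176), 0.09 in CGNL1-KO cells (-0.0788 to 0.25, adjusted p = 0.569) and -0.20 in the double-KO (-0.37 to -0.0374, adjusted p = 0.0671). The change in double-KO cells passed the test with DESeq2 (adjusted p = 0.0362), in a fit of only the genotypes compared (adjusted p = 0.0225), and without WT replicate 1 (adjusted p = 0.0275) or CGN-KO replicate 1 (adjusted p = 0.0294). CYR61 passed the F test for any difference among the 4 genotypes (adjusted p = 0.0260), as did LATS1 (adjusted p = 0.00167) and CTGF (adjusted p = 0.000119), 3 of 10 members beside 29.9% of all genes. For CYR61 this call was lost with scaling by library totals (adjusted p = 0.0567), without CGNL1-KO replicate 2 (adjusted p = 0.0534) or 3 (adjusted p = 0.0502), and without double-KO replicate 2 (adjusted p = 0.0795) or the unnumbered double-KO library (adjusted p = 0.0588).

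As a description of how these targets diverged, the ratio of CYR61 to CTGF CPM was computed within each library, where the scaling of the library cancels. It was 21.6, 25.4 and 27.1 in the WT libraries and 11.7, 14.5 and 14.5 in the CGN-KO libraries. For CGNL1-KO it was 15.6, 20.1 and 20.2, and for double-KO 11.6, 13.3 and 15.1. Every KO library was below every WT library, and CGN-KO and double-KO libraries were below all CGNL1-KO libraries. The ratio compares each gene with itself across libraries and says nothing about which mRNA is more abundant, since CPM are not corrected for gene length.

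**Figure D3:**
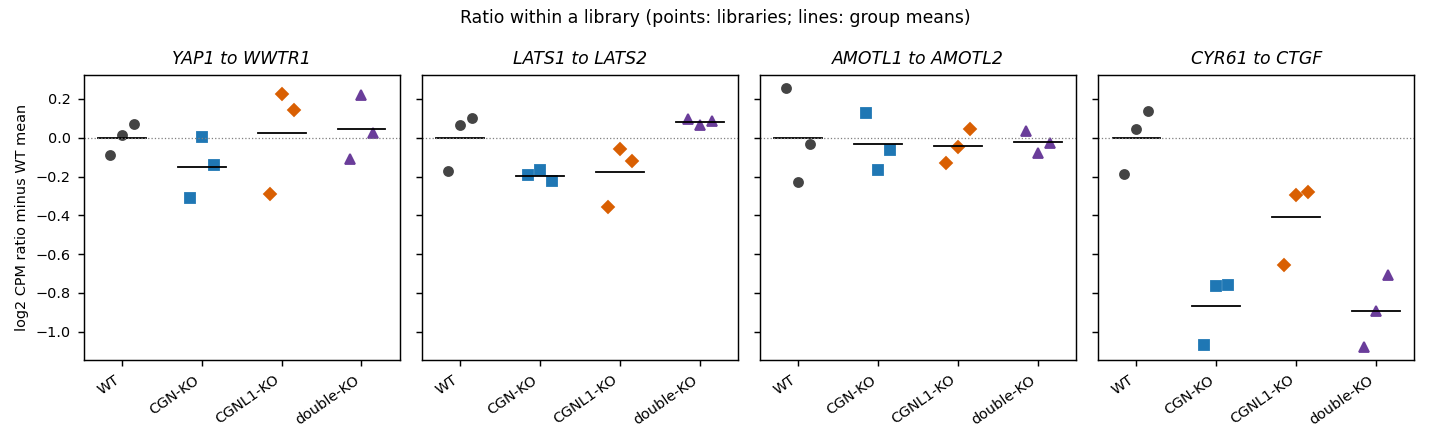
Within-library ratios of CPM for 4 pairs of related members, given as log2 relative to the WT mean (vertical axis), by genotype; points are libraries and horizontal lines are group means. For CYR61 to CTGF all 9 KO libraries lie below the WT libraries, and for YAP1 to WWTR1 and AMOTL1 to AMOTL2 each KO group overlaps with WT.

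LATS2 and AMOTL2, which are pathway components and also YAP targets, had no change that passed the test with all 12 libraries. LATS2, one of the kinases that phosphorylate YAP and TAZ, was 50.2 ± 3.07 CPM in WT, 45.8 ± 1.86 CPM in CGN-KO, 46.9 ± 3.46 CPM in CGNL1-KO cells and 45.0 ± 1.0 CPM in the double-KO. Its double-KO libraries (44.0 to 46.0 CPM) lay below its WT libraries (47.0 to 53.1 CPM), with a log2 change of -0.15 (adjusted p = 0.102). AMOTL2, an angiomotin-family protein that holds YAP and TAZ at junctions, was 131 ± 21.7 CPM in WT, where its 3 libraries spread from 108 to 151 CPM, and 149 ± 20.1, 155 ± 5.0 and 144 ± 10.9 CPM in CGN-KO, CGNL1-KO and double-KO cells. Its log2 changes were 0.19 (-0.0319 to 0.42, adjusted p = 0.223), 0.25 (0.0290 to 0.48, adjusted p = 0.160) and 0.15 (-0.0735 to 0.38, adjusted p = 0.319), and the first of these passed without CGN-KO replicate 1 (0.30, adjusted p = 0.0483).

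LATS1, the other LATS kinase, was lower in both single-KO lines. Its level was 42.8, 47.9 and 45.9 CPM in WT replicates 1, 2 and 3. In CGN-KO replicates 1, 2 and 3 it was 36.0, 35.7 and 37.1 CPM, and in CGNL1-KO replicates 36.0, 38.6 and 38.1 CPM. All 6 single-KO libraries lay below the 3 WT libraries. Among the double-KO libraries, replicate 2 had 44.6 CPM, replicate 3 had 41.7 CPM and the unnumbered one had 43.3 CPM, a range that overlapped with WT and lay above all single-KO libraries.

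The means were 45.5 ± 2.55 CPM in WT, 36.3 ± 0.727 CPM in CGN-KO, 37.6 ± 1.35 CPM in CGNL1-KO cells and 43.2 ± 1.46 CPM in the double-KO. LATS1 fell 1.25-fold in CGN-KO (log2 change -0.32, -0.45 to -0.19, adjusted p = 0.00138) and 1.21-fold in CGNL1-KO cells (-0.27, -0.40 to -0.14, adjusted p = 0.00839). The difference between both single-KO lines was -0.05 (-0.18 to 0.0791, adjusted p = 0.742). The change in CGN-KO cells passed the test when any 1 library was left out (adjusted p up to 0.0123), and that in CGNL1-KO cells was lost without WT replicate 2 (adjusted p = 0.0550). In double-KO cells the change was -0.07 (-0.20 to 0.0561, adjusted p = 0.411).

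Upstream, NF2 encodes merlin, a junctional scaffold that recruits LATS kinases to the membrane. It was 120, 120 and 121 CPM in the WT libraries, 112, 126 and 123 CPM in CGN-KO, 133, 135 and 135 CPM in CGNL1-KO cells, and 119, 126 and 124 CPM in the double-KO. The CGNL1-KO libraries lay above all other libraries. The log2 change of 0.16 in CGNL1-KO cells (0.0472 to 0.27) did not pass the test (adjusted p = 0.0675; 0.0396 without CGN-KO replicate 1), and the changes in CGN-KO (-0.0024, adjusted p = 0.982) and double-KO cells (0.03, adjusted p = 0.684) were smaller.

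AMOTL1, the other angiomotin-like member, was 32.1, 32.0 and 32.7 CPM in WT cells. It was 34.6, 37.0 and 36.6 CPM in CGN-KO, 36.3, 37.5 and 38.4 CPM in CGNL1-KO cells, and 34.6, 36.9 and 34.3 CPM in the double-KO. All 9 KO libraries were above the WT libraries, which differed little (SD 0.376 CPM). AMOTL1 rose 1.15-fold in CGNL1-KO cells (log2 change 0.21, 0.0808 to 0.33, adjusted p = 0.0356), and its changes of 0.16 in CGN-KO (adjusted p = 0.0789) and 0.12 in double-KO cells (adjusted p = 0.136) did not pass the test. The call in CGNL1-KO cells was lost without any single WT library (WT replicate 1, 2 or 3, adjusted p = 0.0819, 0.111 and 0.0653), without CGNL1-KO replicate 2 (adjusted p = 0.0760) or 3 (adjusted p = 0.127), without double-KO replicate 2 (adjusted p = 0.0526), with scaling by library totals (adjusted p = 0.0818), and in a fit of only the genotypes compared (adjusted p = 0.114).

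The transcriptional effectors had no change against WT that passed the test with all 12 libraries in 1 fit. YAP1 was 40.7 ± 1.29 CPM in WT, 39.8 ± 1.87 CPM in CGN-KO, 39.1 ± 1.91 CPM in CGNL1-KO cells, and 36.5 ± 2.73 CPM in the double-KO, where its 3 values were 34.0, 39.4 and 36.0 CPM. The log2 changes were -0.03 (-0.18 to 0.11), -0.06 (-0.20 to 0.0835) and -0.16 (-0.30 to -0.0133), with adjusted p = 0.783, 0.669 and 0.101. WWTR1, which encodes TAZ, was 662 ± 57.1 CPM in WT, 717 ± 46.5 CPM in CGN-KO, 626 ± 93.4 CPM in CGNL1-KO cells and 572 ± 23.4 CPM in the double-KO. The double-KO libraries (595, 548 and 574 CPM) were all below the WT libraries (720, 661 and 605 CPM), at a log2 change of -0.21 (-0.40 to -0.0172, adjusted p = 0.102), which passed without CGNL1-KO replicate 1 (adjusted p = 0.0258) and in a fit of only the genotypes compared (adjusted p = 0.0134). TEAD1, a DNA-binding partner of YAP and TAZ, was 151 ± 3.36, 160.5 ± 7.90, 147.5 ± 9.19 and 147 ± 2.44 CPM in WT, CGN-KO, CGNL1-KO and double-KO cells, with log2 changes between -0.04 and 0.09 and adjusted p between 0.287 and 0.784.

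Counted over all members, the 3 libraries of a KO line did not overlap with the 3 WT libraries for 3 members in CGN-KO (LATS1, AMOTL1 and CTGF), 4 in CGNL1-KO cells (LATS1, NF2, AMOTL1 and CTGF) and 4 in the double-KO (WWTR1, LATS2, AMOTL1 and CTGF). For all genes tested this held for 35.9%, 24.4% and 45.0%. AMOTL1 and CTGF were in each of these sets, both above WT.

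The single-KO lines were then compared with each other. In CGN-KO against CGNL1-KO cells 0 members passed the test with limma, beside 5.19% of all genes; 5 members had an unadjusted p below 0.05, edgeR gave 0 and DESeq2 gave 1. CYR61 (log2 difference -0.25, adjusted p = 0.0901) and NF2 (-0.16, adjusted p = 0.0958) were lower in all 3 CGN-KO libraries than in all 3 CGNL1-KO libraries. Same-numbered libraries of both lines deviated together. When the replicate number was used as a block in a fit of these 6 libraries, which was chosen after the data were seen, 4 members passed: CYR61 (-0.25, adjusted p = 0.00212) and NF2 (-0.16, adjusted p = 0.0144) were lower, and WWTR1 (0.20, adjusted p = 0.00576) and CTGF (0.21, adjusted p = 0.0142) were higher in CGN-KO cells. In this blocked fit 1955 of all genes passed. Without the block 327 passed in a fit of the same 6 libraries, and 656 in the fit of all 12 libraries.

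Double-KO cells were compared with each single-KO line. Against CGN-KO cells 2 of 10 members passed the test, beside 8.84% of all genes. WWTR1 fell 1.25-fold (log2 difference -0.32, -0.51 to -0.13, adjusted p = 0.0333), with all double-KO libraries (548 to 595 CPM) below all CGN-KO libraries (666 to 757 CPM). LATS1 rose 1.19-fold (0.25, 0.12 to 0.38, adjusted p = 0.0176). Both calls were lost when 1 of several libraries was left out. The WWTR1 call was lost without CGN-KO replicate 1 (adjusted p = 0.113) or 3 (adjusted p = 0.0995), or any double-KO library (adjusted p = 0.0646 to 0.134). The LATS1 call was lost without CGN-KO replicate 1 (adjusted p = 0.0600) or 2 (adjusted p = 0.0533), double-KO replicate 2 (adjusted p = 0.0803) or the unnumbered double-KO library (adjusted p = 0.0674). With any 1 library left out, the estimates stayed between -0.3753 and -0.2828 for WWTR1 and between 0.2238 and 0.2715 for LATS1.

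Against CGNL1-KO cells 2 of 10 members passed, beside 14.4% of all genes. CYR61 fell 1.22-fold (log2 difference -0.29, -0.46 to -0.12, adjusted p = 0.0195). LATS1 rose 1.15-fold (0.20, 0.0685 to 0.33, adjusted p = 0.0386). The CYR61 call was lost without double-KO replicate 2 (adjusted p = 0.0996) or the unnumbered double-KO library (adjusted p = 0.0566), and the LATS1 call without any double-KO library (adjusted p = 0.0597 to 0.144), CGNL1-KO replicate 1 (adjusted p = 0.108) or 3 (adjusted p = 0.0880), or CGN-KO replicate 3 (adjusted p = 0.0509), and in a fit of only the genotypes compared (adjusted p = 0.0644).

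Whether the double-KO differed from the sum of the single-KO changes was tested as an interaction in the same fit. For 2 of 10 members it did, beside 10.3% of all genes. LATS1 was 0.52 above the sum on the log2 scale (0.33 to 0.70, adjusted p = 0.00101): the single-KO changes of -0.32 and -0.27 sum to a lower level than the -0.07 measured. CTGF was 0.51 below the sum (interaction -0.51, -0.79 to -0.22, adjusted p = 0.0251), since its rise of 0.68 in double-KO cells was no larger than the 0.69 in CGN-KO cells alone. The LATS1 difference passed with any 1 library left out (adjusted p up to 0.00503), and the CTGF difference was lost without WT replicate 3 (-0.45, adjusted p = 0.0696) or the unnumbered double-KO library (-0.42, adjusted p = 0.0793).

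The position of a member along the genome was taken from the RefSeq gene order of another dog assembly (UU_Cfam_GSD_1.0). LATS1 and CTGF lie on the same chromosome, which also holds MYH14. In double-KO cells the median log2 change of the other 688 tested genes of this chromosome was 0.20 against WT, and 78.3% of them were above WT, while in CGN-KO and CGNL1-KO cells the median was 0.00 and 0.01. The 20 nearest tested genes around LATS1 had a median of -0.07 in CGN-KO, -0.04 in CGNL1-KO cells and 0.16 in the double-KO. Against CGN-KO and CGNL1-KO cells the double-KO medians around LATS1 were 0.22 and 0.18, close to the LATS1 differences of 0.25 and 0.20. Around CTGF the medians were -0.02, -0.01 and 0.14, below its changes of 0.69, 0.49 and 0.68. The part of the chromosome in the LATS1 and CTGF values of double-KO cells was not tested.

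The neighbours of CYR61 were, at the median, lower in the KO lines. The median over 20 neighbours was -0.15 in CGN-KO, -0.11 in CGNL1-KO cells and -0.17 in the double-KO, and 7, 1 and 10 of these neighbours were lower and passed the test, with 0 higher in any line. The median of the whole chromosome was between -0.02 and 0.01. Between double-KO and CGNL1-KO cells the neighbours' median was -0.11, beside -0.29 for CYR61 itself. The neighbours of WWTR1 had a median of -0.02 between double-KO and CGN-KO cells, where WWTR1 was 0.32 lower on the log2 scale, and those of AMOTL1 a median of -0.07 between CGNL1-KO and WT cells, where AMOTL1 was higher.

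**Figure D4:**
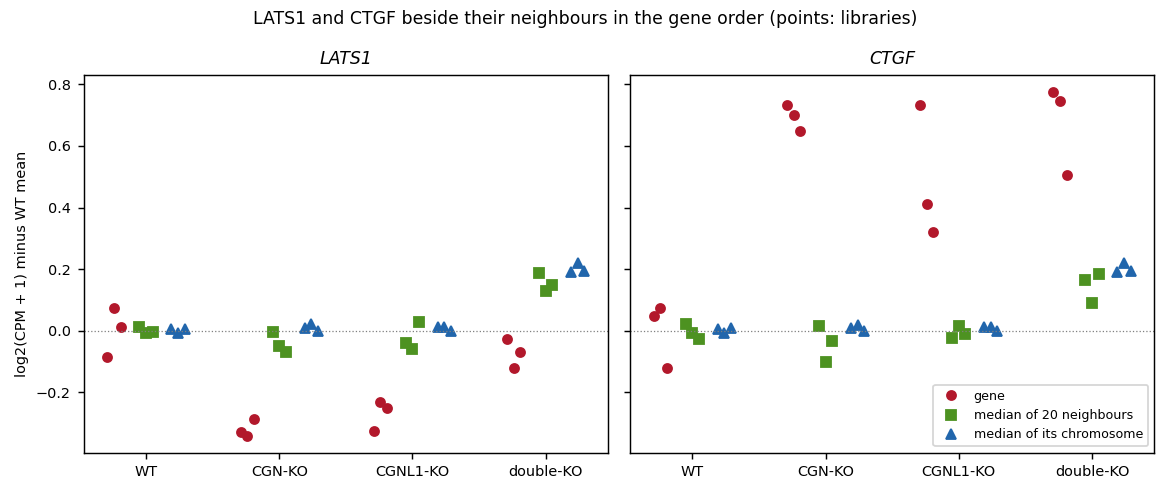
LATS1 (left) and CTGF (right) in each of the 12 libraries, beside the median of the 20 nearest tested genes and the median of the other tested genes of their chromosome; the vertical axis is log2(CPM + 1) minus the WT mean, and points are libraries by genotype. The chromosome medians lie near 0 in WT and single-KO libraries and between 0.19 and 0.22 in the 3 double-KO libraries, where CTGF lies above them (0.51 to 0.78) and LATS1 below them (-0.12 to -0.03).

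The 3 genes with the pattern most like a member, by the root mean square (RMS) difference of centred log2(CPM + 1) over the 12 libraries, were named for the members that passed the F test. For LATS1 they included SEPSECS (RMS difference 0.0583) and LRR1 (0.0588), where the median over all genes was 0.188. For CYR61 they were SLC25A14 (0.0541), ITGA3 (0.0637) and PXN (0.0673), with a median of 0.196. For CTGF they were CD81 (0.0984), VASN (0.105) and FARP1 (0.110), with a median of 0.330.

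The other genes of the pathway were taken from 4 lists, which share 1 gene (PTPN14, listed as a target and as an upstream regulator). As background, 11.2%, 6.81% and 14.8% of all genes tested were higher and passed the test in CGN-KO, CGNL1-KO and double-KO cells. Lower and passing were 7.87%, 3.49% and 11.5%, and a short list gives only coarse shares. Of 13 tested YAP targets other than the members, 3 rose and 0 fell in CGN-KO, 3 rose and 0 fell in CGNL1-KO cells, and 3 rose and 1 fell in the double-KO, with median log2 changes of 0.13, 0.099 and 0.10 beside medians between -0.0039 and -0.00036 for all genes. TGFB2, which encodes a TGF-beta ligand, was between 27.8 and 32.3 CPM in WT and between 48.3 and 60.2 CPM in all KO libraries. It rose 1.82-fold in CGN-KO (log2 change 0.86, adjusted p = 7.71e-07), 1.90-fold in CGNL1-KO cells (0.92, adjusted p = 6.46e-07) and 1.96-fold in the double-KO (0.97, adjusted p = 1.85e-07). TGFB2 and CTGF were higher than WT in all 9 KO libraries, and CYR61 was not. A link between the TGFB2 and CTGF levels was not tested. ANKRD1, a nuclear ankyrin-repeat protein, rose 1.59-fold in CGNL1-KO cells (adjusted p = 0.00748), CCDC80 rose 1.17-fold in CGN-KO cells (adjusted p = 0.0295), and the kinase NUAK2 rose 1.40-fold (adjusted p = 0.0108) while DOCK5 fell 1.13-fold in double-KO cells (adjusted p = 0.0176).

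Of 5 tested TEAD paralogs and Vestigial-like co-factors, 2 rose and 1 fell in CGN-KO, 1 rose and 0 fell in CGNL1-KO cells, and 1 rose and 4 fell in the double-KO. The background in these lines was 19.0%, 10.3% and 26.3% of all genes tested, in either direction. TEAD2 rose in all 3 lines, by 1.28-fold in CGN-KO (adjusted p = 0.000196), 1.14-fold in CGNL1-KO cells (adjusted p = 0.0314) and 1.38-fold in the double-KO (adjusted p = 1.17e-05), while its paralog TEAD1 had no change that passed. TEAD4 fell 1.25-fold in CGN-KO cells (adjusted p = 0.000148). Its mean was 141 CPM in WT, 112 CPM in CGN-KO, 129 CPM in CGNL1-KO and 112 CPM in double-KO cells. VGLL4, which competes with YAP for TEADs, fell 1.34-fold in double-KO cells (adjusted p = 0.00209). VGLL1 rose in CGN-KO (log2 change 0.81, adjusted p = 0.00144) and fell in double-KO cells (-0.48, adjusted p = 0.0308), at a low level with between 5 and 63 reads per library.

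Of 17 kinases and adaptors of the cascade, 1 rose and 2 fell in CGN-KO, 0 rose and 4 fell in CGNL1-KO cells, and 1 rose and 5 fell in the double-KO. The median log2 changes were -0.08, -0.08 and -0.12. Of all genes tested, 19.0%, 10.3% and 26.3% passed in these lines in either direction. TNIK, a kinase of the MAP4K family, fell 1.96-fold in CGNL1-KO (adjusted p = 0.000186) and 1.77-fold in double-KO cells (adjusted p = 0.000335), from between 8.79 and 11 CPM in WT. MOB1B, an activator of LATS kinases, fell 1.22-fold in CGN-KO (adjusted p = 0.0213) and 1.33-fold in CGNL1-KO cells (adjusted p = 0.00383). Its mean was 17.5 CPM in WT and 14.8 CPM in double-KO cells. TAOK3, which acts upstream of the cascade, fell 1.15-fold in CGN-KO cells (adjusted p = 0.0151). Mean TAOK3 was 74.3 CPM in WT and 64.3, 63.2 and 63.4 CPM in CGN-KO, CGNL1-KO and double-KO cells. SAV1, the scaffold of the MST kinases, fell 1.17-fold in double-KO cells (adjusted p = 0.0227). MAP4K2 rose 1.23-fold in CGN-KO (adjusted p = 0.00573) and 1.50-fold in double-KO cells (adjusted p = 1.30e-05).

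Of 13 tested upstream regulators, 3 rose and 1 fell in CGN-KO, 0 changed in CGNL1-KO cells, and 2 rose and 1 fell in the double-KO. The share of all genes tested that passed in either direction was 19.0%, 10.3% and 26.3% in these lines. For the count of 0 with limma, 4 genes had an unadjusted p below 0.05, edgeR gave 0 and DESeq2 gave 1. FRMD6 rose 1.44-fold (adjusted p = 0.00139) and KIRREL1 1.34-fold (adjusted p = 0.0312) in CGN-KO cells. In double-KO cells the atypical cadherin FAT1 rose 1.28-fold (adjusted p = 0.00284), WWC1 (KIBRA), a partner of merlin, rose 1.26-fold (adjusted p = 8.61e-05), and its paralog WWC3 fell 1.24-fold (adjusted p = 0.00360). Mean WWC1 was 288, 344, 314 and 364 CPM in WT, CGN-KO, CGNL1-KO and double-KO cells.

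**Figure D5:**
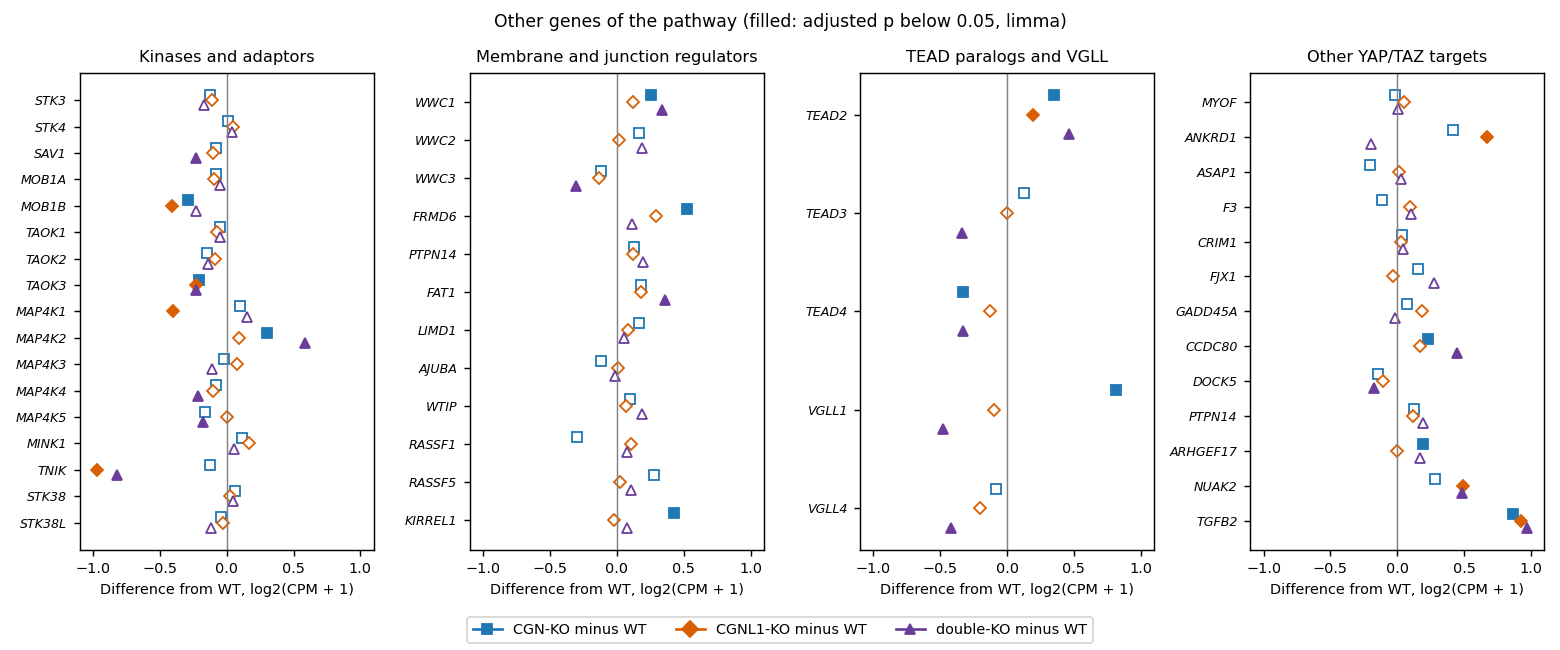
Log2 change against WT of the other listed Hippo pathway genes in the 3 KO lines, except 1 upstream regulator that is not drawn, in 1 panel each for kinases and adaptors, upstream regulators (membrane and junction), TEAD paralogs and co-factors, and YAP targets (horizontal axis in log2 units of CPM + 1; 1 colour and symbol per line; filled symbols passed the test at an adjusted p below 0.05). TGFB2 is higher in all 3 lines, TNIK is lower in CGNL1-KO and double-KO cells, and 4 of 5 TEAD paralogs and co-factors are lower in double-KO cells.

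Lists that could move with the YAP targets were summed beside them. Immediate early genes, which respond to handling and serum and include factors that act at CTGF and CYR61, summed to between 1836 and 1960 CPM in WT, 1955 and 2278 CPM in CGN-KO, 1720 and 1997 CPM in CGNL1-KO cells and 1899 and 2030 CPM in the double-KO. Of 17 tested, 5 rose and 1 fell in CGN-KO, 0 rose and 2 fell in CGNL1-KO cells, and 4 rose and 1 fell in the double-KO. Beside these counts and those of the cell cycle genes below, 19.0%, 10.3% and 26.3% of all genes tested passed in either direction. JUN rose 1.48-fold in double-KO cells (adjusted p = 0.000399). Its mean was 50.8 CPM in WT, 70.4 CPM in CGN-KO, 58.9 CPM in CGNL1-KO and 75.6 CPM in double-KO cells. KLF6 fell 1.37-fold, 1.25-fold and 1.33-fold in CGN-KO, CGNL1-KO and double-KO cells (adjusted p = 2.78e-05, 0.00130 and 5.63e-05). Of 15 cell cycle genes 2, 2 and 6 rose and none fell in these lines, with sums between 2661 and 2804 CPM in WT, 2622 and 2902 CPM in CGN-KO, 2460 and 3031 CPM in CGNL1-KO, and 3137 and 3209 CPM in double-KO libraries. The share of these responses in the CTGF and CYR61 values was not tested, and in bulk RNA fewer cells of a type and less RNA per cell cannot be told apart.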

How the data were processed

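RNASeq was carried out on untreated MDCKII cells (12 libraries, 3 per genotype). The authors used STAR (2.7.0f) for alignment to canFam3, HTSeq (0.9.1) for gene counts, and edgeR for scaling and filtering. The annotation release and strand setting are not given in the sources used here. The deposited values are a signal in CPM (read counts scaled by library size and TMM factor). In every library 100% of the values were whole multiples of 1 read (tolerance 0.01 reads), so reads and depth (16837532 to 30086076 per library) were recovered. The columns are named by genotype and replicate, and 1 double-KO column lacks a number. Groups were taken from the labels.

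All genotypes entered 1 limma fit (version 3.58.1, R 4.3.3; lmFit, then eBayes with trend) of log2(CPM + 1), with no block, for the 12650 genes above 1 CPM in 3 or more libraries. P-values are two-sided and adjusted by Benjamini-Hochberg. Alternatives were edgeR (4.0.16) and DESeq2 (1.42.0) on recovered reads, a pseudocount of 0.25, no filter, library totals, a replicate block, only the genotypes compared, and each library left out. The limma fit was tested on simulated data. Intervals have 95% confidence.

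The members and gene lists were chosen with earlier results of these data known. Named genes were the members, for each list the 2 largest rises and 2 largest falls per contrast among genes that passed, and the 3 genes most like each member that passed the F test; 2 genes that this rule names are not reported here. Replicate numbers paired CGN-KO and CGNL1-KO libraries, as the deviations of same-numbered libraries from their group means correlated in 3 of 3 pairs (0.179 to 0.632). The labels do not say what a number marks. RefSeq gene order placed 92.9% of the genes tested, and CYR61 and CTGF were matched there as CCN1 and CCN2. Promoter motifs were not analysed here. 16 genes have date-form names and were left as they are.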

Additional observations from a re-analysis of the deposited data

Results flagged for a closer look

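Differences in effect between the KO lines were looked at again where the difference itself passed limma's test. WWTR1 was lower in double-KO than in CGN-KO cells (log2 difference -0.32), in 3 of 3 libraries. LATS1 was higher in double-KO than in CGN-KO (0.25) and than in CGNL1-KO cells (0.20), in 3 of 3 libraries each. CYR61 was lower in double-KO than in CGNL1-KO cells (-0.29), in 3 of 3 libraries. These differences were picked because they passed the test on the same libraries, so the library counts add no support. As given above, each of these calls was lost when certain single libraries were left out. Beyond the sum of the single-KO changes, LATS1 was 0.52 higher and CTGF was lower (-0.51). LATS1 and CTGF share the chromosome whose other genes had a median change of 0.20 in double-KO cells, and the part of this shift in their values was not tested. With 3 libraries per genotype no library was tested as standing apart from its group.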

How the results depend on the processing

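Of the members' log2 changes recomputed under the alternatives, 684 kept their direction and side of the threshold, 36 no longer passed, 11 newly passed and 5 reversed. The reversed ones were near 0: NF2 in CGN-KO cells (0.0099 with library totals, -0.0372 to 0.0474 with 1 library left out), YAP1 in CGN-KO cells (-0.0579 to 0.0061) and TEAD1 in CGNL1-KO cells (-0.0682 to 0.0177). With the replicate number as a block for numbered libraries, 5 members passed in CGNL1-KO, 2 in double-KO, 2 between the single-KO lines (4 in a fit of those libraries), 1 between double-KO and CGN-KO, and 5 in the F test. Under this block NF2 (adjusted p = 0.0402) and AMOTL2 (0.25, adjusted p = 0.0326) newly passed in CGNL1-KO and CYR61 (-0.26, adjusted p = 0.0131) in double-KO cells. LATS1 no longer passed in double-KO against CGN-KO (0.22, adjusted p = 0.0621) or against CGNL1-KO cells (0.17, adjusted p = 0.109), and CTGF newly passed in the latter (0.33, adjusted p = 0.00550). Numbers paired the other genotypes in 2 of 3 pairs at most. DESeq2 gave 2 members in double-KO cells, 1 between the single-KO lines and 5 in the F test. With only the genotypes compared, 3 members passed in double-KO cells and 1 between double-KO and CGNL1-KO. Leaving out each library gave 2 to 3 members in CGN-KO, 1 to 4 in CGNL1-KO, 1 to 2 in double-KO, 0 to 2 in each contrast between KO lines, 1 to 2 beyond the sum, and 2 to 5 in the F test. Genes passing under the block were 3426 in CGN-KO, 1897 in CGNL1-KO cells and 3564 in the double-KO, beside 2408, 1302 and 3333. The causes were not tested. Library totals moved the median of all genes by at most 0.043 (log2). Every member had at least 544 reads in each library, and precision is further limited by 3 libraries per genotype.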

Other observations

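Among the 12 epithelial markers, 5 rose and 3 fell in CGN-KO, and 4 rose and 0 fell in CGNL1-KO cells. In the double-KO 2 rose and 2 fell. In these lines 19.0%, 10.3% and 26.3% of all genes passed the test in either direction. KRT19, a keratin of simple epithelia, rose 1.37-fold in CGN-KO (adjusted p = 0.000485) and 1.28-fold in CGNL1-KO cells (adjusted p = 0.00577), and PAX2, a kidney transcription factor, fell 1.40-fold in CGN-KO (adjusted p = 0.00177) and 1.41-fold in double-KO cells (adjusted p = 0.00119). The 4 listed mesenchymal markers summed to at most 21.1 CPM and the 4 listed endothelial and immune markers to at most 9.52 CPM in any library. Of 3 tested in each list, 1 mesenchymal marker rose in CGN-KO (PDGFRA, adjusted p = 0.0489; not with DESeq2) and 1 fell in CGNL1-KO cells (TAGLN, adjusted p = 0.0113), and 1 endothelial marker, KDR, rose in CGNL1-KO (adjusted p = 0.0474; not with edgeR or DESeq2) and fell in double-KO cells (adjusted p = 0.000113).

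PCNA, the sliding clamp of DNA replication, rose in all 3 lines (log2 change 0.48 in CGN-KO, 0.52 in CGNL1-KO cells and 0.53 in the double-KO), and RRM2, a ribonucleotide reductase subunit, rose in double-KO cells (0.37, adjusted p = 0.00386). The within-library ratio of LATS1 to LATS2 was between 0.806 and 0.976 in WT, 0.776 and 0.810 for CGN-KO, 0.710 and 0.872 for CGNL1-KO, and 0.948 and 0.970 for double-KO libraries, so every KO group overlapped with WT.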
